A study of Mus musculus with 18 samples.

Results

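The genes described here are 31 genes of sterol and fatty acid synthesis in mouse bone marrow-derived macrophages, taken from the tables by gene symbol. They fall into a sterol branch of 21 genes (Hmgcs1, Mvk, Pmvk, Mvd, Idi1, Fdps, Fdft1, Sqle, Lss, Cyp51, Msmo1, Nsdhl, Hsd17b7, Ebp, Sc5d, Dhcr7, Tm7sf2, Acat2, Srebf2, Insig1 and Stard4) and a fatty acid branch of 10 (Srebf1, Acly, Acaca, Fasn, Scd1, Scd2, Fads1, Fads2, Elovl5 and Elovl6). All 31 were found among the 23052 gene symbols of both count tables, and all 31 passed the filter on low counts in both. The cells in all 18 libraries were C57BL6/J wild type, differentiated from bone marrow over 7 days, with L929-conditioned medium as 20% of the culture and DMEM as 80%. The tolerant table holds 12 libraries of endotoxin-tolerant macrophages in 3 groups of 4: glutamine present, glutamine absent, and glutamine absent with α-ketoglutarate (AKG) supplied. That table has no macrophages that were not tolerant. The stimulation table holds 6 libraries, a pair each of control macrophages (labelled CTRL and called untreated here), macrophages after 6 h of IL-4, and macrophages after 6 h of LPS. No doses are given in the labels, nor the way tolerance was induced, nor whether replicates are separate animals or cultures, so p-values measure only the spread between these samples. The series asks how glutamine metabolism affects transcripts of tolerant macrophages.

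Cholesterol is made from acetyl-CoA through the mevalonate pathway, which yields squalene, and through a later series of steps that turn squalene into lanosterol and then cholesterol. Acly makes cytosolic acetyl-CoA from citrate. Fatty acids are made from the same acetyl-CoA by Acaca and Fasn, and are then desaturated (Scd and Fads enzymes) and lengthened (Elovl enzymes). Srebf2 encodes the SREBP2 transcription factor, which mainly drives sterol genes, and Srebf1 encodes SREBP1, which mainly drives fatty acid genes. Insig1 holds the SREBP precursors in the endoplasmic reticulum when sterols are plentiful, and SREBP targets are known to include Insig1 itself. In macrophages LPS signals through TLR4 and IL-4 through its own receptor, and LXR receptors respond to oxysterols.

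Promoter sequences show how the members differ in their starts, since SREBP acts together with the CCAAT-binding factor NF-Y on known sterol promoters. RefSeq windows of 300 bases (250 before the start and 50 after it, GRCm38.p6) were matched by symbol for 24 of the 31 members, 17 sterol and 7 fatty acid genes. Fdps, Fdft1, Sqle, Stard4, Scd1, Scd2 and Fads1 had no entry. Of the 6 windows printed, Hmgcs1, Insig1 and Msmo1 are sterol genes that fell with LPS, and Acat2 is the sterol gene that rose. Fasn and Fads2 are fatty acid genes that moved in opposite directions with IL-4. Each is written 5′ to 3′ along the gene's strand, and capitals mark CCAAT, TCACNCCAC (a form of the sterol regulatory element) or CACGTG (an E-box), read on both strands. On the other strand CCAAT reads ATTGG, and in Fasn 1 CCAAT and 1 ATTGG overlap.
Hmgcs1 (chr13:119690101-119690400, plus strand): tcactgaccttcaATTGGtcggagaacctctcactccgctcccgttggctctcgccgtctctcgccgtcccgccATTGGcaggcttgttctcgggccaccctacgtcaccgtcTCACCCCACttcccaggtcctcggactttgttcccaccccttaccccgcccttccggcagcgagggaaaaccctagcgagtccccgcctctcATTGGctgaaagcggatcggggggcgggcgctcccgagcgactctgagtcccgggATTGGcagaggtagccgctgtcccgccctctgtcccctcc
Insig1 (chr5:28071162-28071461, plus strand): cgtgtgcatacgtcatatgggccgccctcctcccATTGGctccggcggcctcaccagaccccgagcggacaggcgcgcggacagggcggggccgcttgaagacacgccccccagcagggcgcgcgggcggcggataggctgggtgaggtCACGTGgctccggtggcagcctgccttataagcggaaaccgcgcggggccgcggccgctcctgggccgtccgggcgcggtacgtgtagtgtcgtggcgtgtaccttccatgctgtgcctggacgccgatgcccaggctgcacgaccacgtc
Msmo1 (chr8:64733529-64733828, minus strand): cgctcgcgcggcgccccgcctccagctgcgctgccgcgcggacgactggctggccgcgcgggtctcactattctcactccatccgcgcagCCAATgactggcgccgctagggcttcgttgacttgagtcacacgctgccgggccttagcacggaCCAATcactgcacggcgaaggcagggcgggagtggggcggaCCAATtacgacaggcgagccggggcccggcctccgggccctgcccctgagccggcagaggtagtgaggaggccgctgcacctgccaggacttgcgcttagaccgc
Acat2 (chr17:12960676-12960975, minus strand): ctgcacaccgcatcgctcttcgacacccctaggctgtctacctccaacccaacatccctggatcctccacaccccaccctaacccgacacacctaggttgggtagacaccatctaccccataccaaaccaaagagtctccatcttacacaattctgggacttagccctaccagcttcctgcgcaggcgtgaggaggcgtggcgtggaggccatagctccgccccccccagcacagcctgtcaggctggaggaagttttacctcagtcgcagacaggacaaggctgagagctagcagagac
Fasn (chr11:120824498-120824797, minus strand): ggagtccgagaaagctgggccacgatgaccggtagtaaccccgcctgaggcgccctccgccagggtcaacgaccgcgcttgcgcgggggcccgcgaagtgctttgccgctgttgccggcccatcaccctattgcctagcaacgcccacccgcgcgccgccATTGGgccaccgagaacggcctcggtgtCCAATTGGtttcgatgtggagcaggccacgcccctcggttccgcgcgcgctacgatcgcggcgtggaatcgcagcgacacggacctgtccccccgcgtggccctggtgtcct
Fads2 (chr19:10101454-10101753, minus strand): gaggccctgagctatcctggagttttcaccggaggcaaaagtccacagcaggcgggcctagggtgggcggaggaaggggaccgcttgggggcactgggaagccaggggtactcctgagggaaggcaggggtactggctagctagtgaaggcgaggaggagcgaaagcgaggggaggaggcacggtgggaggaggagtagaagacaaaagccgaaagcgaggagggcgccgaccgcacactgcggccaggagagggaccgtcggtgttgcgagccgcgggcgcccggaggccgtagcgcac

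CCAAT stood in at least 1 window of 16 of the 17 sterol members with a window (94.12%) and of 4 of the 7 fatty acid members, against 41.06% of all 27025 genes with a window. Acat2 was the 1 sterol member without it. The fatty acid members without it were Acaca, Fads2 and Elovl6, which fell with LPS like most members. Srebf1, Srebf2 and Idi1 had it and were not called with LPS. Hmgcs1 had 4 matches, the printed Msmo1 and Fasn windows had 3 each, Insig1 had 1, and Fads2 had none. TCACNCCAC was found in Hmgcs1 alone among the members, and in 1.44% of all genes with a window. CACGTG was found in 5 members, 4 sterol genes and 1 fatty acid gene, and in 8.09% of all genes. In Dhcr7, which has several starts, CCAAT was found only at a start downstream of the others. These are letter matches in short windows and were not tested as binding sites.

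Levels are in CPM, a count scaled to a common library total after TMM factors, unless said otherwise, and library totals ran from 28302158 to 39760356 counts. A gene was called when the adjusted p of edgeR's quasi-likelihood F test, taken over all genes of a table, was under 0.05. Fold changes are on the log2 scale. All 11 macrophage markers (such as Csf1r, Cd68 and Lyz2) were detected in every library, with summed levels between 31063 and 54338 CPM. Stromal fibroblast markers were also present, and their sum differed between the tolerant groups. It was 392 to 2065 CPM with glutamine, 48.4 to 204 without it and 108 to 391 with AKG, against 87.7 to 133 in the stimulation table. Of the other marker lists, neutrophil markers summed to at most 17.8 CPM in any library, dendritic cell markers to at most 6.95, mast cell and basophil markers to at most 5.24, and adipocyte markers to at most 1.48. Lymphocyte markers reached at most 0.5999 CPM and erythroid markers at most 0.123. The strand option used with HTSeq is not known from the labels. A same-strand gene overlaps 9 members and an opposite-strand gene overlaps 9, among them Fdft1 with Ctsb, Cyp51 with Akap9, and Srebf1 with Rai1. Reads shared between the close paralogs Scd1 and Scd2 were not separated further.

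The levels of the 31 genes spanned a wide range within each group. Per kb of exon, Scd2, Fads1 and Acly were the 3 highest members in untreated cells, at 48.9 ± 0.972, 46.1 ± 6.01 and 43.1 ± 0.119 CPM per kb (SD, n = 2). Scd2 and Scd1 encode stearoyl-CoA desaturases, Acly makes cytosolic acetyl-CoA from citrate, and Fads1 is the delta-5 desaturase of polyunsaturated fatty acids. The spreads of Scd2 and Fads1 overlapped there, and so did those of Fads1 and Acly. In the 3 tolerant groups the same 3 genes led, with Acly at 39.4 ± 2.34 CPM per kb, Fads1 at 38.5 ± 0.322 and Scd2 at 32.6 ± 8.63 with glutamine (SD, n = 4). With LPS, Srebf2 stood first at 41.5 ± 4.58 CPM per kb, before Acly at 30.2 ± 0.103 and Scd2 at 29.5 ± 3.76 (SD, n = 2), and the last 2 did not differ beyond their spread. Fads1 was 2nd in untreated cells and 16th of 31 with LPS, at 6.89 ± 0.433 CPM per kb. Elovl6, which lengthens palmitate, was the lowest member in untreated, LPS and IL-4 cells (1.004 ± 0.633, 0.201 ± 0.0312 and 0.740 ± 0.198 CPM per kb).

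The geometric mean of the 21 sterol members was 42.6 ± 2.40 CPM in untreated cells, 39.4 ± 1.21 with IL-4 and 20.1 ± 0.256 with LPS (SD, n = 2). For the 10 fatty acid members these values were 63.5 ± 1.20, 62.3 ± 2.03 and 24.7 ± 0.320 CPM. Both LPS libraries lay below the other 4 in each branch. In the tolerant table the sterol mean was 21.1 ± 3.69 CPM with glutamine, 16.7 ± 0.448 without it and 15.7 ± 2.25 with AKG (SD, n = 4). The fatty acid mean was 46.6 ± 2.86, 39.6 ± 5.85 and 34.4 ± 4.39 CPM. The tables are separate sets that were scaled separately, so no test was made between tolerant and untreated cells.

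**Figure D1:**
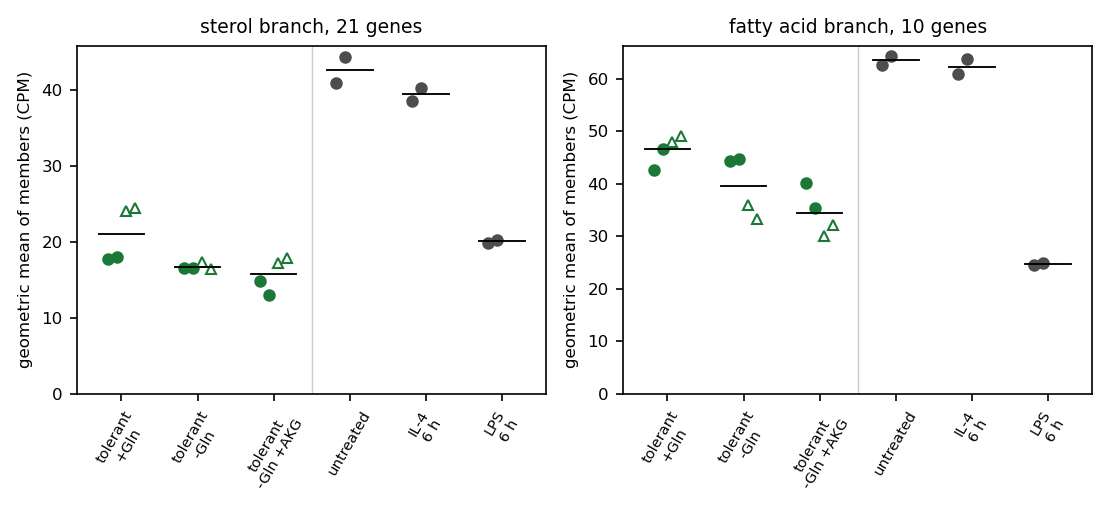
Geometric mean of the sterol members (left) and the fatty acid members (right) in CPM, 1 point per library, with the group mean as a line; circles are replicates 1 and 2 and triangles replicates 3 and 4. The LPS libraries sit near 20.1 CPM (sterol) and 24.7 CPM (fatty acid), below the untreated and IL-4 libraries, and the triangles lie above the circles in the sterol branch with glutamine and with AKG.

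LPS for 6 h lowered most members of both branches. Of the 21 sterol members, 18 fell and 1 rose, and of the 10 fatty acid members 9 fell. Among all genes tested, 29.3% fell and 22.8% rose (52.1% in either direction), so a call in itself is common in this comparison. The median change was -1.13 for the sterol members and -1.21 for the fatty acid members, against -0.095 for all genes. In bulk RNA, a lower level per cell and fewer cells that express a gene cannot be told apart. The 18 sterol members that fell and the 9 fatty acid members that fell had groups that did not overlap, as did those of 41.7% of all genes tested in that direction. These members were picked by their calls, and the 41.7% covers genes called or not. Their lack of overlap therefore adds no separate evidence.

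Dhcr7, which reduces 7-dehydrocholesterol to cholesterol in the last step, showed the deepest fall of the 31. Its levels were 29.4 and 25.1 CPM in the untreated libraries and 1.77 and 2.34 with LPS, where 51 to 67 counts remained of 1069 to 1226. The change was -3.72 ± 0.18 (SE, adjusted p = 4.4e-05), which is 13.2-fold lower. No LPS library came near an untreated one, and with IL-4 the gene stood at 27.3 and 29.6 CPM.

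Insig1 read 95.7 and 92.3 CPM untreated and 26.2 and 28.7 with LPS, a change of -1.78 ± 0.10 (SE, adjusted p = 8e-05). Lss, the lanosterol synthase that closes the sterol rings, read 34.7 and 34.5 CPM untreated and 10.996 and 10.3 with LPS, a change of -1.70 ± 0.10 (SE, adjusted p = 9.1e-05). Msmo1, which removes methyl groups from lanosterol-derived sterols, read 130.5 and 149 CPM untreated and 41.7 and 44.3 with LPS, a change of -1.70 ± 0.11 (SE, adjusted p = 0.00012). Both LPS libraries were below both untreated ones in all 3 genes, 3.43-fold, 3.25-fold and 3.25-fold lower. Fdft1, the squalene synthase, read 40.2 and 38.5 CPM untreated and 16.3 and 16.3 with LPS, a change of -1.27 ± 0.10 (SE, adjusted p = 0.00021). Cyp51, the lanosterol demethylase, read 110.4 and 125 CPM untreated and 50.3 and 51.9 with LPS, a change of -1.20 ± 0.11 (SE, adjusted p = 0.00032). In each of these genes the untreated and LPS libraries were clearly apart.

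The other 12 sterol members that fell changed by between -0.52 (Ebp, a sterol isomerase) and -1.80 (Stard4, a cytosolic carrier of sterols). Hmgcs1, the HMG-CoA synthase that acts before mevalonate is made, was among them at -1.68 ± 0.20 (SE, adjusted p = 0.0009), from 103 and 152 to 37.5 and 41.9 CPM. Sqle, the squalene epoxidase, Mvd, the mevalonate diphosphate decarboxylase, and Tm7sf2, a sterol reductase, changed by -1.24, -1.18 and -1.13. Fdps, the farnesyl diphosphate synthase, read 67.7 and 64.0 CPM untreated and 36.4 and 33.0 with LPS, at -0.92 ± 0.10 (SE, adjusted p = 0.00076). Mvk and Pmvk, the kinases of mevalonate and phosphomevalonate, changed by -0.78 and -0.60, and Hsd17b7 by -0.96. At the small end, Sc5d passed narrowly at -0.57 ± 0.19 (SE, adjusted p = 0.045), and its call was lost in the fit with replicate blocks (adjusted p = 0.059), which called 17 sterol members lower and 1 higher, and 48.3% of all genes (21.4% higher, 26.9% lower). Leaving out 1 library also ended calls at that end. Ebp was lost without replicate 1 of the untreated cells (adjusted p = 0.082) or replicate 2 of LPS (0.10), and Nsdhl without replicate 1 of LPS (0.052). For Sc5d the adjusted p with any 1 of the 6 libraries left out was 0.003 to 0.16, and the call held only without replicate 1 of the untreated cells.

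Acat2 moved against its branch, while Srebf2 and Idi1 were not called. These 3 were singled out after their values were seen. Acat2 encodes a cytosolic thiolase that joins acetyl-CoA units ahead of Hmgcs1. Its level was 13.1 and 13.1 CPM in untreated cells, 10.95 and 12.4 with IL-4 and 24.8 and 22.2 with LPS, a rise of 0.85 ± 0.12 (SE, adjusted p = 0.0017). Both LPS libraries were above the other 4, and 32.8% of all genes tested had LPS above untreated cells without overlap. Srebf2 read 287 and 249 CPM untreated and 322 and 275 with LPS, which overlap, at 0.15 ± 0.13 (SE, adjusted p = 0.36), and the value is -0.30 when libraries are scaled by their totals alone. Idi1, the isopentenyl diphosphate isomerase, read 5.35 and 15.4 CPM untreated and 4.11 and 6.67 with LPS. Its groups overlapped and its untreated replicates differed more than the group means, at -0.94 ± 0.59 (SE, adjusted p = 0.24).

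In the fatty acid branch the desaturases Fads1 and Scd1 showed the deepest falls. Scd1 read 22.8 and 23.8 CPM untreated and 4.25 and 4.23 with LPS, a change of -2.46 ± 0.11 (SE, adjusted p = 3.7e-05), or 5.49-fold lower. Fads1 read 242 and 201 CPM untreated and 31.7 and 34.6 with LPS, a change of -2.74 ± 0.14 (SE, adjusted p = 5.2e-05), or 6.68-fold lower. Fads2, the delta-6 desaturase that acts before Fads1, read 30.3 and 25.4 CPM untreated and 6.05 and 5.13 with LPS, a change of -2.32 ± 0.17 (SE, adjusted p = 0.00017). For these 3 genes each LPS library was far below each untreated library. Scd2, the paralog of Scd1, fell from 271 and 263 to 146 and 176 CPM at -0.73 ± 0.13 (SE, adjusted p = 0.0047). Elovl6 read 3.58 and 9.33 CPM untreated and 1.15 and 1.43 with LPS, at -2.32 ± 0.56 (SE, adjusted p = 0.022), and its call was lost without either LPS library (adjusted p = 0.13 and 0.098).

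Enzymes that supply acetyl-CoA or build and lengthen the chain were also lower. Fasn, the fatty acid synthase, read 117 and 105 CPM untreated and 39.6 and 39.0 with LPS, a change of -1.50 ± 0.11 (SE, adjusted p = 0.00017). Acaca, the acetyl-CoA carboxylase, read 28.3 and 30.96 CPM untreated and 17.9 and 20.0 with LPS, a change of -0.65 ± 0.11 (SE, adjusted p = 0.0036). Acly read 228 and 227 CPM untreated and 159.9 and 159 with LPS, a change of -0.51 ± 0.089 (SE, adjusted p = 0.0042). Elovl5, which lengthens polyunsaturated chains, read 55.1 and 51.9 CPM untreated and 27.9 and 28.2 with LPS, a change of -0.93 ± 0.095 (SE, adjusted p = 0.00055). Srebf1 was the 1 fatty acid member that did not pass. Its levels of 121 and 100.4 CPM untreated and 117 and 96.6 with LPS overlap at -0.051 ± 0.15 (SE, adjusted p = 0.80), and its sign turns with size factors (0.047).

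**Figure D2:**
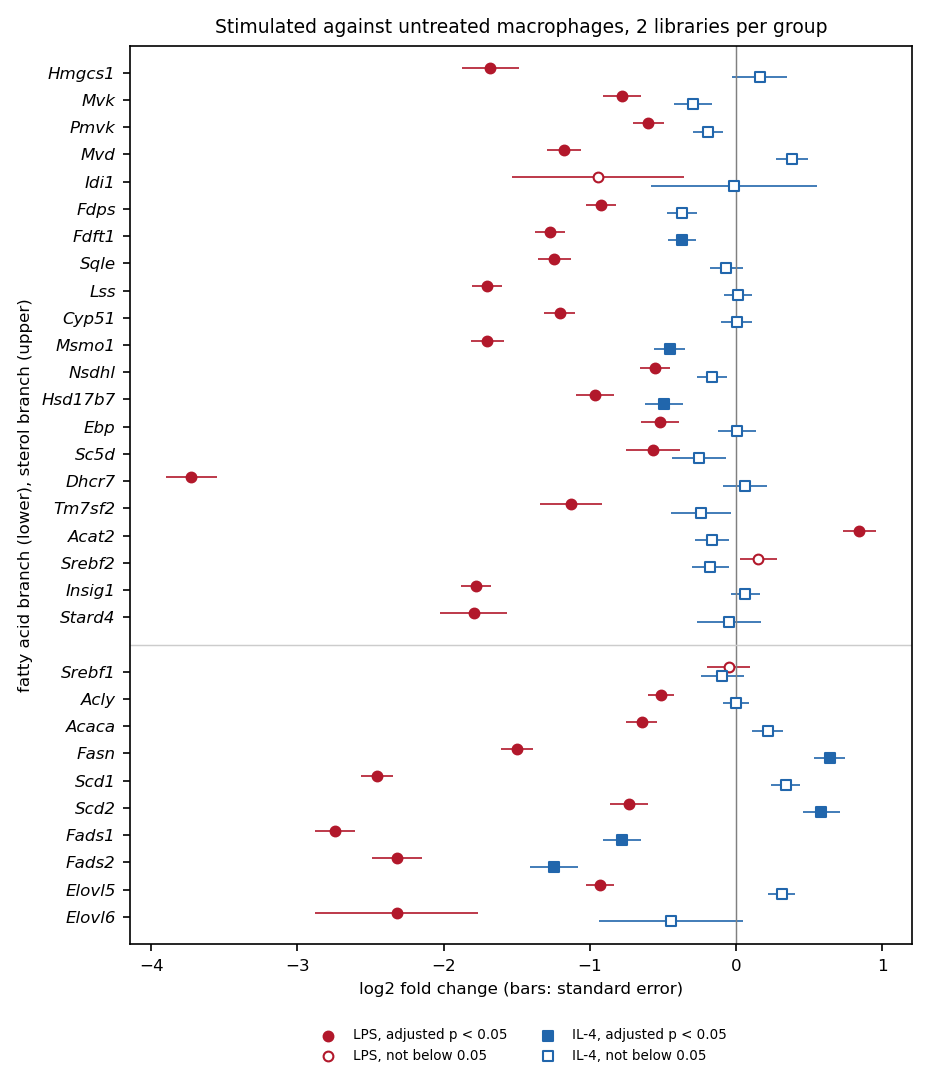
log2 fold change against untreated cells for each member, with the standard error as a bar; red circles are LPS and blue squares IL-4, filled where the adjusted p is under 0.05. The LPS points lie left of 0 except Acat2 and Srebf2, with Dhcr7 at -3.72, and most IL-4 points lie near 0.

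The scaling of the LPS libraries bears on the size of these falls. Their TMM factors were 0.79 and 0.82, against 1.09 to 1.12 in untreated cells. Scaled by library totals alone, the median of all genes moved to -0.55. The counts were then 18 sterol members lower and 1 higher, and 10 fatty acid members lower, with Srebf1 added. Of all 12506 genes tested, 8016 were called under that scaling, against 6519 with TMM factors. Neutrophil and dendritic cell markers moved with LPS as well. The neutrophil sum was 2.84 to 3.19 CPM untreated and 13.1 to 17.8 with LPS, with Ly6g at 0 in all 4 libraries, and the dendritic cell sum was 0.868 to 0.936 and 4.68 to 5.39 CPM. Of 11 macrophage markers 5 were called higher and 1 lower, and of 7 stromal markers 1 was called higher, where 22.8% of all genes rose and 29.3% fell. The part of these cells in the result was not tested.

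Few sterol members were called with IL-4, and the fatty acid branch moved in both directions. Of the 21 sterol members 3 fell and 0 rose, and of the 10 fatty acid members 2 rose and 2 fell. Among all genes tested, 20.1% were called, 9.66% higher and 10.5% lower. Median changes were -0.16 for the sterol members, 0.11 for the fatty acid members and -0.039 for all genes. IL-4 and LPS were each compared with the same 2 untreated libraries.

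In the fatty acid branch Fasn rose from 117 and 105 to 165 and 181 CPM, a change of 0.64 ± 0.11 (SE, adjusted p = 0.011). Scd2 rose from 271 and 263 to 373 and 429 CPM, a change of 0.59 ± 0.13 (SE, adjusted p = 0.027). The desaturases of polyunsaturated chains went the other way. Fads2 fell from 30.3 and 25.4 to 10.6 and 13.0 CPM, a change of -1.24 ± 0.16 (SE, adjusted p = 0.0042). Fads1 fell from 242 and 201 to 123 and 135 CPM, a change of -0.78 ± 0.13 (SE, adjusted p = 0.0097). The groups did not overlap in any of the 4 genes, as in 58.3% of all genes tested (26.5% higher, 31.8% lower). The 4 were picked by their calls, so this adds no separate evidence. All 4 calls held with the replicate block, and only that of Fads2 held without either IL-4 library. Without replicate 1 or 2 of IL-4 the adjusted p was 0.06 and 0.11 for Fasn, 0.081 and 0.19 for Scd2, and 0.096 and 0.066 for Fads1.

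Among the sterol members Msmo1 read 130.5 and 149 CPM untreated and 100.4 and 104 with IL-4, a change of -0.45 ± 0.11 (SE, adjusted p = 0.034). Hsd17b7, a keto-reductase of the same demethylation steps, read 26.9 and 32.6 CPM untreated and 20.0 and 22.3 with IL-4, a change of -0.49 ± 0.13 (SE, adjusted p = 0.045). Fdft1 read 40.2 and 38.5 CPM untreated and 29.0 and 32.0 with IL-4, a change of -0.37 ± 0.098 (SE, adjusted p = 0.048). With the replicate block none of these 3 was called (adjusted p = 0.052, 0.053 and 0.09), where 15.7% of all genes were called (7.89% higher, 7.79% lower). At an unadjusted p under 0.05, 5 sterol members passed in that fit. That threshold is looser than that of the 15.7%, so the count cannot be set against this share. DESeq2 called 2 sterol members and limma-voom 4, where they called 2574 and 2560 of all 12506 genes. Leaving out any 1 LPS or IL-4 library left 0 sterol calls, and the adjusted p over the 6 libraries left out was 0.033 to 0.23 for Msmo1, 0.025 to 0.28 for Hsd17b7 and 0.056 to 0.34 for Fdft1.

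Markers of other cell types also moved with IL-4. The adipocyte sum was 0 to 0.024 CPM untreated and 1.19 to 1.48 with IL-4, nearly all of it Adipoq, with Plin1 and Lep at 0 in all 4 libraries. The dendritic cell sum was 0.868 to 0.936 CPM untreated and 6.37 to 6.95 CPM with IL-4. Among all genes tested, 9.66% were called higher with IL-4 and 10.5% lower. Of 7 stromal markers 2 were called lower, with a sum of 124 to 128 CPM untreated and 87.7 to 94.1 with IL-4. Of 11 macrophage markers 4 were called lower and 1 higher, with a sum of 40606 to 44164 CPM untreated and 31063 to 33437 with IL-4. Their part in the result was not tested.

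Set directly against LPS, IL-4 libraries were higher for 17 sterol members and lower for 1, Acat2, and higher for 9 fatty acid members. Among all genes tested 53.1% were called, 29.7% higher with IL-4 and 23.4% lower. Dhcr7 differed most at 3.79 ± 0.18 (SE, adjusted p = 3.3e-05), followed in the sterol branch by Insig1 at 1.84 ± 0.10 (SE, adjusted p = 5.3e-05) and Lss at 1.71 ± 0.10 (SE, adjusted p = 6.9e-05). Mvd differed by 1.56 ± 0.12 (SE, adjusted p = 0.00015), from 10.8 and 11.4 CPM with LPS to 31.8 and 33.5 with IL-4. Msmo1 and Cyp51 differed by 1.25 ± 0.11 (SE, adjusted p = 0.00028) and 1.21 ± 0.11 (SE, adjusted p = 0.00028). In the fatty acid branch the smallest p-values were those of Scd1 at 2.80 ± 0.11 (SE, adjusted p = 1.9e-05), Fasn at 2.14 ± 0.11 (SE, adjusted p = 4.5e-05) and Fads1 at 1.96 ± 0.13 (SE, adjusted p = 0.00011), then Elovl5, Scd2 and Acaca at 1.24, 1.32 and 0.86. The libraries are those already given, so this adds no independent evidence to the LPS falls. Without replicate 2 of IL-4, the sterol count was 11 in place of 18.

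In the tolerant table replicates 1 and 2 stood apart from replicates 3 and 4 within every group, a grouping that the labels do not name. The difference was visible in the sterol members. With glutamine, the level in replicates 3 and 4 exceeded that in 1 and 2 for 18 of 21 sterol members, with a median of 0.39, and with AKG for 14 members with a median of 0.41. Without glutamine 11 members were above and 10 below, with a median of 0.056. Medians over all genes were 0.026 with glutamine, -0.023 without it and -0.0027 with AKG. In the fatty acid branch the medians were 0.13 with glutamine, -0.18 without it and -0.18 with AKG. Scd2 showed the widest split, at 191, 239, 140.3 and 142 CPM with glutamine, 289, 325, 94.6 and 78.3 without it and 293, 272, 63.8 and 72.8 with AKG in replicates 1 to 4. The biological coefficient of variation was 0.271 without a term for the replicate number and 0.124 with it, so tolerant results are printed from both fits.

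Removing glutamine gave lower values for most members of both branches, few of which passed the test. The change was below 0 for 20 of 21 sterol members (median -0.36) and 8 of 10 fatty acid members (median -0.13), against a median of -0.012 for all genes. Of the sterol members 1 fell, and of the fatty acid members 1 fell and 1 rose, where 4.7% of all genes were called, 2.3% higher and 2.4% lower. With the replicate block 8 sterol members fell, and 4 fatty acid members fell and 1 rose, where 21.7% of all genes were called, 8.68% higher and 13% lower. The stromal marker sum was 48.4 to 204 CPM without glutamine against 392 to 2065 with it, and 5 of its 7 tested markers, such as Col1a1 at -4.35, were called lower. Its part in the result was not tested.

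Fads2 read 5.29, 5.21, 7.601 and 7.63 CPM in replicates 1 to 4 with glutamine and 3.78, 3.50, 2.91 and 2.08 without it, with no overlap. It fell by 2.09-fold, a change of -1.07 ± 0.23 (SE, adjusted p = 0.026), and -1.07 ± 0.23 (SE, adjusted p = 0.0094) with the block. Elovl5 was the 1 member that rose. Its levels of 59.2, 59.7, 74.6 and 69.9 CPM with glutamine and 83.0, 85.1, 84.0 and 83.5 without it did not overlap, at 0.35 ± 0.083 (SE, adjusted p = 0.037). Dhcr7 read 21.3, 21.2, 22.5 and 23.1 CPM with glutamine and 18.3, 17.8, 18.04 and 14.1 without it, lower in each of the 4 libraries, at -0.37 ± 0.093 (SE, adjusted p = 0.047). Groups did not overlap in these directions for 5.78% (lower) and 6.57% (higher) of all genes, called or not. Fads2, Elovl5 and Dhcr7 were picked by their calls, so their lack of overlap adds no separate evidence. The Dhcr7 call was lost when any 1 of the 12 libraries was left out (adjusted p = 0.055 to 0.14). That of Elovl5 was lost without any 1 of 7 (0.023 to 0.099 over the 12), namely replicates 1 and 2 with glutamine, 1, 2 and 3 without it, and 2 and 4 with AKG, and that of Fads2 with 5 (0.025 to 0.079), namely replicates 3 and 4 with glutamine and replicates 2, 3 and 4 without it.

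Stard4 was among the 8 sterol members called with the block. It read 24.5, 27.9, 39.5 and 38.4 CPM with glutamine and 16.6, 15.6, 19.2 and 21.7 without it, each library of the second group below each of the first, at -0.81 ± 0.13 (SE, adjusted p = 0.0019) with the block and -0.83 ± 0.26 (SE, adjusted p = 0.11) without. Idi1 read 2.80, 2.78, 4.12 and 5.34 CPM with glutamine and 1.97, 2.13, 1.14 and 2.43 without glutamine, at -0.93 ± 0.26 (SE, adjusted p = 0.029) with the block and an adjusted p of 0.096 without. Tm7sf2 changed by -0.50 ± 0.090 (SE, adjusted p = 0.004) and Pmvk by -0.50 ± 0.098 (SE, adjusted p = 0.0063) with the block. The other 4 were Dhcr7, Mvk, Ebp and Srebf2, which changed by -0.25 to -0.37. In the fatty acid branch Fads2 was joined by Fasn at -0.45 ± 0.13 (SE, adjusted p = 0.041), Elovl6 at -0.84 ± 0.23 (SE, adjusted p = 0.029) and Fads1 at -0.19 ± 0.057 (SE, adjusted p = 0.039). Fasn read 56.4, 63.8, 70.0 and 72.4 CPM with glutamine and 54.1, 54.7, 46.5 and 38.3 without it, and the highest library without glutamine was below the lowest with it.

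**Figure D3:**
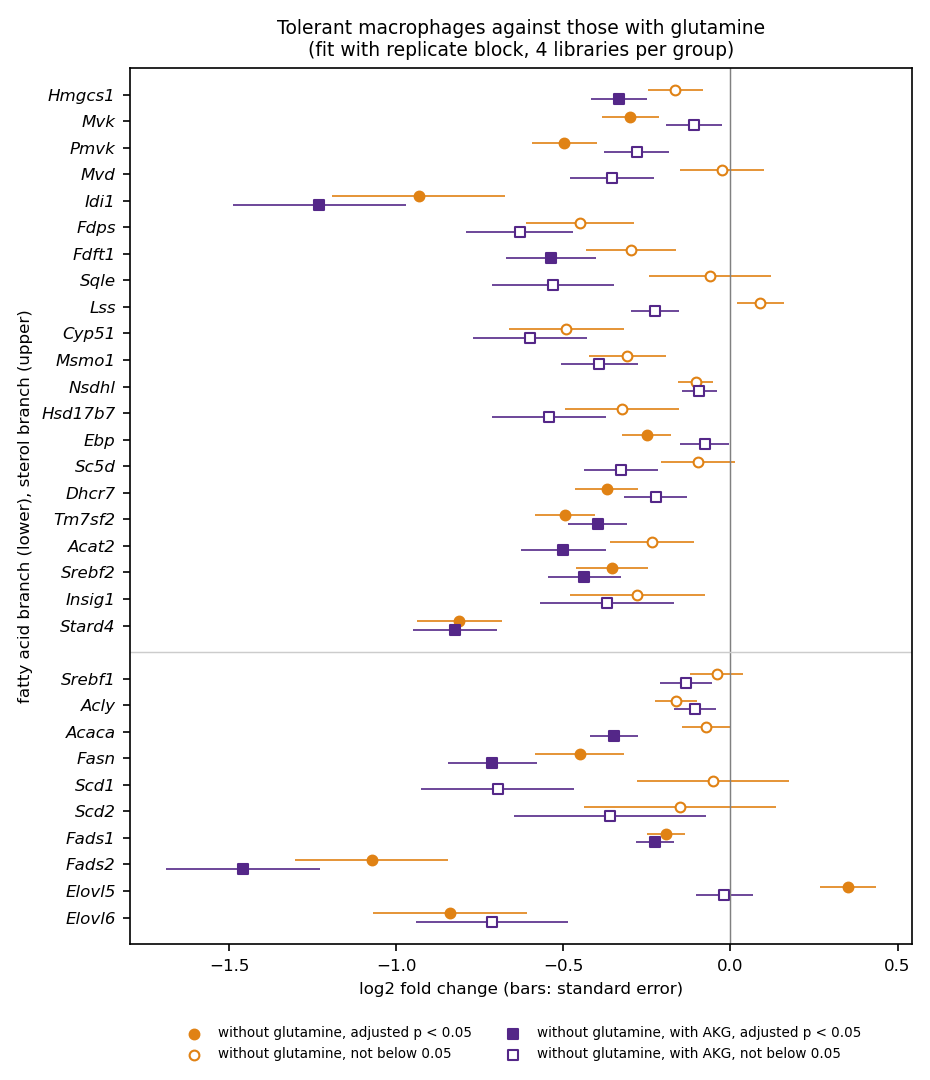
log2 fold change against tolerant cells with glutamine for each member in the fit with the replicate block, with the standard error as a bar; orange circles are cells without glutamine and purple squares those without glutamine but with AKG, filled where the adjusted p is under 0.05. Nearly all points lie left of 0, Fads2 lies furthest left at -1.07 and -1.46, and Elovl5 without glutamine lies right of 0 at 0.35.

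No member was called higher when AKG was supplied in the absence of glutamine. Against cells without glutamine, the change was below 0 for 14 of 21 sterol members (median -0.051) and 8 of 10 fatty acid members (median -0.21), against a median of 0.0062 for all genes. edgeR called 0 of 21 and 0 of 10, where 1.49% of all genes were called (0.64% higher, 0.849% lower). At an unadjusted p under 0.05 there were 3 sterol and 3 fatty acid members, among 1619 of 12492 genes. DESeq2 called 0 and 1, among 682 genes, and limma-voom 0 and 0. With the block, 1 sterol and 2 fatty acid members fell, where 15.3% of all genes were called (8.32% higher, 7.03% lower). Stromal markers had a sum of 48.4 to 204 CPM without glutamine and 108 to 391 with AKG, and their part was not tested.

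The 3 members called with the block were Lss, Elovl5 and Acaca. They were picked by these calls, so a lack of overlap in them adds no separate evidence. Lss read 22.7, 22.3, 25.6 and 23.2 CPM without glutamine and 17.5, 17.1, 20.0 and 21.1 with AKG, a lower group with no overlap, at -0.31 ± 0.071 (SE, adjusted p = 0.017) with the block and -0.31 ± 0.11 (SE, adjusted p = 0.26) without. Elovl5 read 83.0, 85.1, 84.0 and 83.5 CPM without glutamine and 70.0, 66.2, 61.0 and 62.2 with AKG, again with no overlap (5.08% of all genes were lower without overlap), at -0.37 ± 0.084 (SE, adjusted p = 0.018) with the block and -0.37 ± 0.083 (SE, adjusted p = 0.053) without. Its AKG libraries lay within the range of those with glutamine (59.2, 59.7, 74.6 and 69.9 CPM). Acaca read 32.8, 31.5, 33.0 and 27.8 CPM without glutamine and 28.1, 27.5, 22.2 and 25.6 with AKG, which overlap narrowly, at -0.28 ± 0.072 (SE, adjusted p = 0.032) with the block and -0.27 ± 0.092 (SE, adjusted p = 0.20) without. Besides Lss, the sterol members with an unadjusted p under 0.05 were Mvd, at -0.34 ± 0.13 (SE, adjusted p = 0.27) without the block and -0.33 ± 0.13 (SE, adjusted p = 0.11) with it, and Mvk, which had the opposite sign. Mvk read 9.40, 8.98, 9.87 and 8.07 CPM without glutamine and 10.3, 10.7, 9.74 and 10.7 with AKG, at 0.19 ± 0.083 (SE, adjusted p = 0.36) without the block. Besides Elovl5 and Acaca, the fatty acid member was Scd1, at -0.61 ± 0.25 (SE, adjusted p = 0.31).

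Against cells with glutamine, those with AKG gave a value below 0 for all 31 members. Medians were -0.41 for the sterol members and -0.29 for the fatty acid members, against -0.0019 for all genes. edgeR called 0 of 21 and 0 of 10, and 0% of all genes. At an unadjusted p under 0.05 there were 8 sterol and 6 fatty acid members, all lower, among 916 of 12492 genes. DESeq2 called 2 sterol and 4 fatty acid members, among 232 genes, and limma-voom called 0 and 0. With the block, 7 sterol and 4 fatty acid members fell and none rose, where 7.01% of all genes were called, 1.63% higher and 5.38% lower. The group with glutamine is shared with the comparison above, so the 2 sets of values are not independent. Stromal markers summed to 392 to 2065 CPM with glutamine and 108 to 391 with AKG, and their part was not tested.

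Fads2 again showed the deepest change, at 5.29, 5.21, 7.601 and 7.63 CPM with glutamine and 3.18, 1.87, 2.25 and 2.19 with AKG, or -1.46 ± 0.23 (SE, adjusted p = 0.0054) with the block and -1.44 ± 0.24 (SE, adjusted p = 0.085) without. Fasn read 56.4, 63.8, 70.0 and 72.4 CPM with glutamine and 46.1, 40.5, 35.1 and 39.5 with AKG, with no overlap, at -0.71 ± 0.13 (SE, adjusted p = 0.014) with the block and -0.70 ± 0.13 (SE, adjusted p = 0.14) without. Acaca and Fads1, the other 2 called with the block, changed by -0.35 and -0.23. Groups did not overlap in the lower direction for 5 fatty acid and 4 sterol members, and for 3.09% of all genes. In the sterol branch Idi1 read 2.80, 2.78, 4.12 and 5.34 CPM with glutamine and 1.45, 1.12, 2.11 and 1.61 with AKG, at -1.23 ± 0.26 (SE, adjusted p = 0.021) with the block and -1.26 ± 0.30 (SE, adjusted p = 0.20) without. Acat2 read 6.38, 5.84, 6.85 and 6.89 CPM with glutamine and 5.68, 4.50, 4.11 and 4.25 with AKG, at -0.50 ± 0.13 (SE, adjusted p = 0.046) with the block and -0.49 ± 0.14 (SE, adjusted p = 0.28) without. Stard4 read 12.6, 12.5, 24.5 and 26.1 CPM with AKG, where replicates 3 and 4 were about as high as the lowest libraries with glutamine, at -0.82 ± 0.13 (SE, adjusted p = 0.0047) with the block. Tm7sf2, Hmgcs1, Fdft1 and Srebf2 were the other 4 called with the block, between -0.33 and -0.54.

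**Figure D4:**
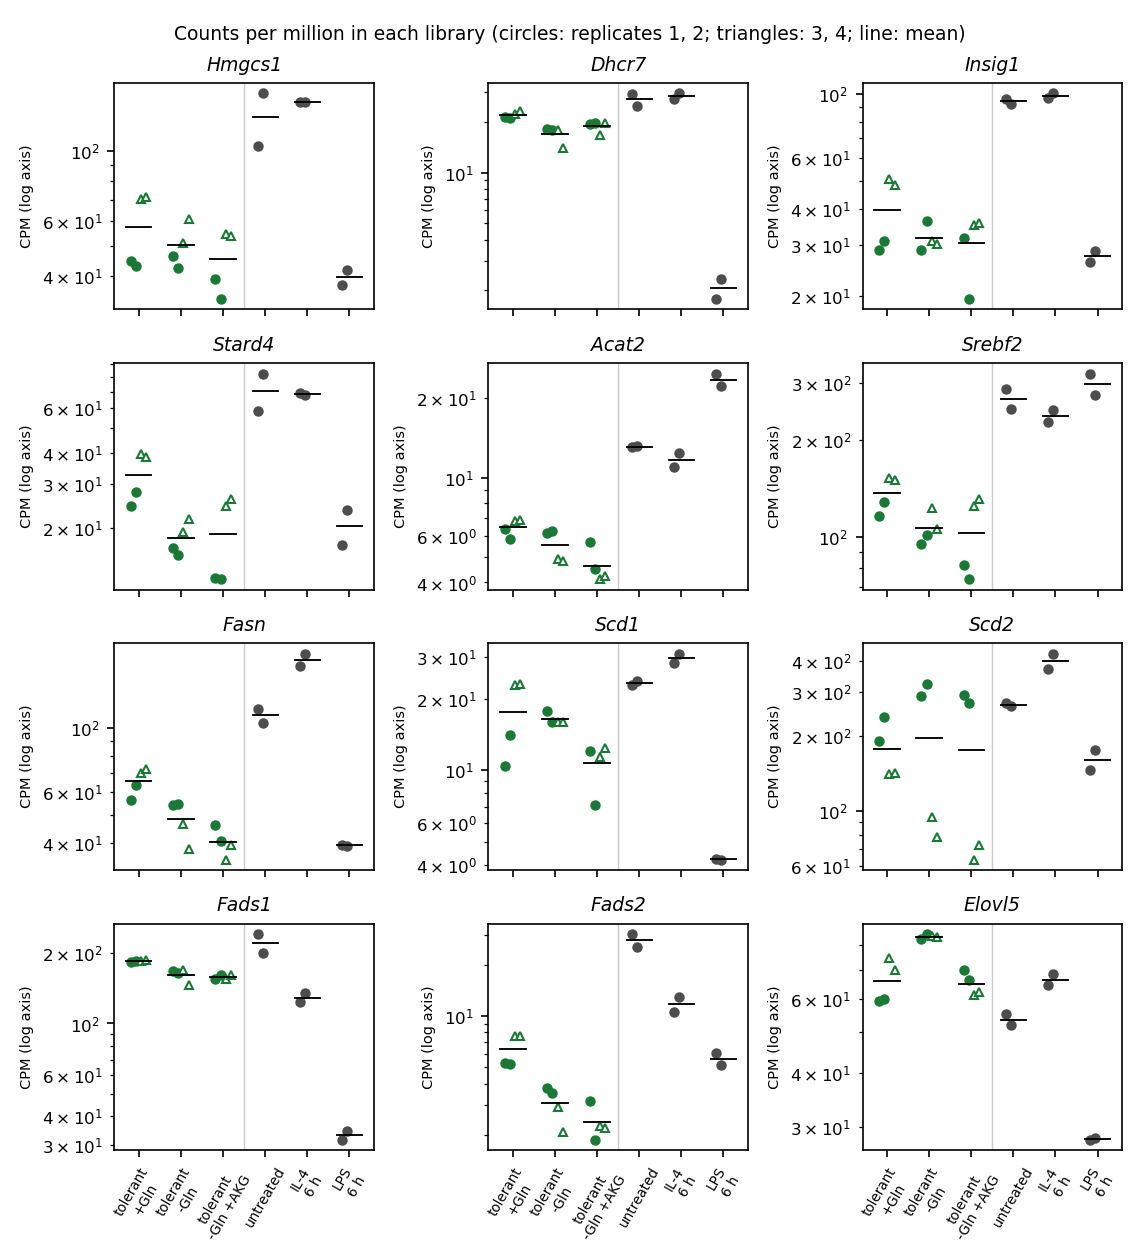
Level in CPM on a log axis for 12 members, 1 point per library with the group mean as a line; circles are replicates 1 and 2 and triangles replicates 3 and 4. The LPS points of Dhcr7 (1.77 and 2.34 CPM) lie far below all others. Those of Scd1 (4.25 and 4.23 CPM) are the lowest, with replicate 2 of AKG next at 7.15 CPM. The LPS points of Acat2 lie above the others, and in Scd2 the tolerant circles and triangles are apart. Tolerant and stimulation libraries were scaled separately.

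The effect of removing glutamine also differed between the replicate pairs. In replicates 1 and 2 the median change of the sterol members was -0.028, with 12 of 21 below 0, and in replicates 3 and 4 it was -0.50, with all 21 below 0. The difference of the pairs was called for Cyp51, at -0.92 ± 0.13 (SE, adjusted p = 0.0094), and for Hsd17b7, at -0.93 ± 0.16 (SE, adjusted p = 0.018), where 2.45% of all genes were called. Cyp51 changed by -0.028 in replicates 1 and 2 and by -0.94 in 3 and 4, and Hsd17b7 by 0.15 and -0.78. Cyp51 read 18.2, 20.3, 44.4 and 44.6 CPM with glutamine and 19.7, 18.1, 23.5 and 22.8 without it, so that in this comparison the pairs differ mainly in the level with glutamine. With AKG it read 15.6, 13.4, 25.9 and 26.9 CPM. Stromal markers were higher in replicates 3 and 4 of every tolerant group. Their sums in replicates 1 to 4 were 392, 431, 2065 and 2034 CPM with glutamine, where Col1a1 read 104, 125, 651 and 634 CPM. The sums were 53.2, 48.4, 204 and 188 CPM without glutamine and 148, 108, 379 and 391 CPM with AKG. The part of stromal cells was not tested.

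Scd2 turned its direction between the pairs. Without glutamine it changed by 0.51 in replicates 1 and 2 and by -0.71 in 3 and 4, a difference of -1.22 ± 0.18 (SE, adjusted p = 0.011). With AKG against glutamine the values were 0.39 and -1.04, a difference of -1.44 ± 0.18 (SE, adjusted p = 0.0041), and 1.61% of all genes were called there. Elovl5 changed by 0.20 and -0.23 in that comparison, a difference of -0.43 ± 0.088 (SE, adjusted p = 0.047). Stard4 and Fads2 were lower in both pairs and both comparisons, between -0.53 and -1.78 for Fads2. For AKG against no glutamine the sterol median was -0.34 in replicates 1 and 2 and 0.065 in 3 and 4. No member was called for a difference there in edgeR's test, where 0.056% of all genes were called. At an unadjusted p under 0.05 there were 7 sterol and 0 fatty acid members. The share of all genes at that threshold was not taken, and the 0.056% is for the adjusted p. These counts therefore cannot be set against a background.

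**Figure D5:**
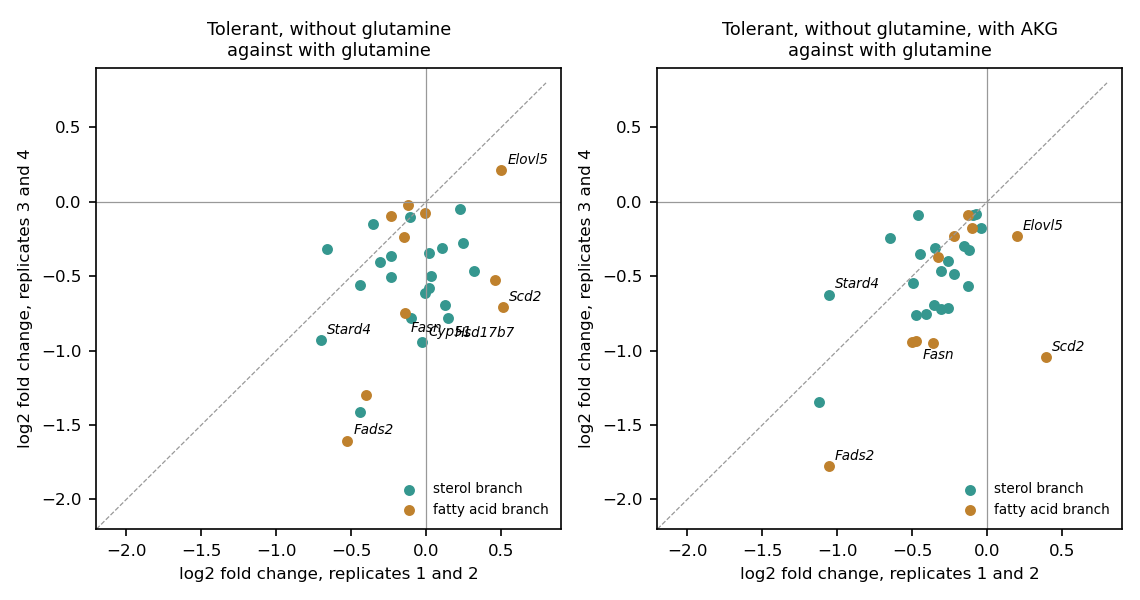
Each point is a member, with its log2 fold change in replicates 1 and 2 on the horizontal axis and in replicates 3 and 4 on the vertical axis, for cells without glutamine (left) and those with AKG (right) against cells with glutamine. Most sterol points (teal) lie below the dashed line of equality, and Scd2 lies right of 0 and below 0 in both panels.

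Of 15 fatty acid pathway genes outside the 31, 9 fell and 2 rose with LPS, where 29.3% of all genes fell and 22.8% rose. The smallest p was that of Lpin1, a phosphatidate phosphatase, which went from 28.5 and 26.9 to 0.870 and 0.908 CPM at -4.96 ± 0.13 (SE, adjusted p = 2.6e-05). With IL-4 Lpin1 stood at 70.5 and 79.1 CPM, a rise of 1.43 ± 0.10 (SE, adjusted p = 0.00064). Mid1ip1, an activator of acetyl-CoA carboxylase, fell with LPS (-1.21) and with IL-4, at -1.58 ± 0.11 (SE, adjusted p = 0.00053) in the second case.

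Of 9 genes that handle the SREBP precursors, 2 were called with LPS and 1 with IL-4, where 52.1% and 20.1% of all genes were. Mbtps1, the protease that first cuts SREBP, fell with LPS at -0.68 ± 0.10 (SE, adjusted p = 0.0022), and Erlin1 rose at 0.49 ± 0.12 (SE, adjusted p = 0.014). With IL-4 the 1 gene called was Insig2, a second retention protein, which rose from 29.1 and 32.9 to 49.9 and 47.6 CPM at 0.65 ± 0.11 (SE, adjusted p = 0.0092). Of 12 oxysterol, LXR and esterification genes, 4 rose and 3 fell with LPS, and 2 rose and 4 fell with IL-4. With LPS 22.8% of all genes rose and 29.3% fell, and with IL-4 9.66% rose and 10.5% fell. Ch25h, the cholesterol 25-hydroxylase, went from 0.768 and 0.657 to 109.8 and 67.5 CPM at 6.95 ± 0.37 (SE, adjusted p = 0.00012). Nr1h3, which encodes LXRα, rose from 46.6 and 43.3 to 140.4 and 132 CPM with LPS, at 1.60 ± 0.12 (SE, adjusted p = 0.00016), and Cyp27a1, the sterol 27-hydroxylase, fell by 5.90-fold. In the tolerant comparisons none of the genes of these 3 lists was called without the block, and between 0 and 6 genes of a list had an unadjusted p under 0.05. Of all 12492 genes, 2234 had such a p without glutamine, 1619 for AKG against no glutamine and 916 for AKG against glutamine. With the block, 2 of the 15 fatty acid pathway genes fell and 1 rose without glutamine, 3 fell with AKG against no glutamine and 4 fell with AKG against glutamine, where 21.7%, 15.3% and 7.01% of all genes were called. Fads3, a relative of Fads1 and Fads2, changed by -0.89 ± 0.084 (SE, adjusted p = 0.00011) without glutamine and by -0.66 ± 0.083 (SE, adjusted p = 0.0015) with AKG against glutamine. Me1, the cytosolic malic enzyme that supplies NADPH, changed by -0.74 ± 0.13 (SE, adjusted p = 0.0052) with AKG against no glutamine. None of the 9 genes that handle SREBP precursors was called with the block in edgeR, and at most 1 had an unadjusted p under 0.05 in any tolerant comparison.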

How the data were processed

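RNA of 18 libraries (TruSeq stranded kit, per the labels) was deposited as 2 tables of raw counts per gene, which the submitters' processing notes tie to HTSeq, STAR and the mm10 build, without versions. All groups of a table entered 1 fit (edgeR 4.0.16 under R 4.3.3; limma 3.58.1 for voom), with TMM factors, filterByExpr and robust quasi-likelihood F tests on 12492 (tolerant) and 12506 (stimulation) genes, with Benjamini-Hochberg adjustment over them. Geometric means add 0.5 CPM. Exon lengths and overlaps come from GENCODE vM21. The members and gene lists were chosen with earlier results of these data known. Genes described in full were, per comparison and branch, up to 6 called members with the smallest p (2 where none was called), and up to 4 genes per other list; other members are named to account for all 31. A list of other sterol pathway genes is not reported here. Replicates were not copies of each other (chi-square 7.68 to 173 per degree of freedom). In the tolerant table the value was 7.68 to 9.78 between replicates 1 and 2, 18.6 to 73.2 between 3 and 4, and 117 to 173 across the pairs. Tests of the difference between pairs, and fits of 1 pair alone, rest on the spread within a pair. Whether the 2 libraries of a pair are independent is not given in the labels.

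The replicate numbers come from the labels, which do not say what they mark. Deviations from group means of same-number libraries correlated at 0.50 to 0.82 in all 12 pairs of the tolerant table, so a block on the number is printed where it changes a call. Libraries with other numbers correlated at -0.84 to 0.84, and replicates 1 and 2 stood apart from 3 and 4. Within the pairs, other numbers reached 0.84, as high as the 0.82 of equal numbers. The correlations therefore do not show that equal numbers belong together beyond the pairs. In 1 simulated set per table, the share of false calls was close to the threshold for the tolerant table and well above it for the stimulation table, and most 1.5-fold changes were missed, so calls near the threshold in the stimulation table are less certain. Alternatives were RLE factors, library totals, no filter or 1 CPM, DESeq2 1.42.0, limma-voom, groups alone, the block, the replicate pair as a factor or alone, no robust option, and each library left out. Figures used Python 3.11.15 and matplotlib 3.10.9.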

Additional observations from a re-analysis of the deposited data

Results flagged for a closer look

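Of 93 sets of 4 tolerant libraries (31 members in 3 groups), 4 (4.30%) had 1 library far from the other 3 on the log2 scale, where chance gives about 1 in 20. Dhcr7 was lowest in replicate 4 without glutamine, at 14.1 CPM among 18.3, 17.8, 18.04 and 14.1, and lowest in replicate 3 with AKG, at 16.8 CPM. Scd1 was highest in replicate 1 without glutamine, at 17.8 CPM, and lowest in replicate 2 with AKG, at 7.15 CPM among 12.002, 7.15, 11.4 and 12.4.

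For 5 values the effect in replicates 3 and 4 differed from that in replicates 1 and 2 by edgeR's test of the difference. Without glutamine against with it, replicates 3 and 4 minus 1 and 2 gave -0.92 for Cyp51, -0.93 for Hsd17b7 and -1.22 for Scd2. With AKG against glutamine the differences were -1.44 for Scd2 and -0.43 for Elovl5. The pairs are a grouping seen in the data, and what sets them apart was not tested.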

How the results depend on the processing

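With LPS the count of called members stayed within 1.5 times in both branches under all alternatives, and 24 of the 28 called members held in all of them. For IL-4 against untreated cells 1 of 7 did, for IL-4 against LPS 18 of 27, and without glutamine 0 of 3. The cause of these changes was not tested.

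Called members without glutamine (1 sterol, 2 fatty acid) came to 8 and 5 with the replicate block, 9 and 5 with the replicate pair as a factor, 5 and 5 with DESeq2, 7 and 4 in replicates 1 and 2 only, and 9 and 4 in replicates 3 and 4 only. The sterol count was 0 with no filter or limma-voom, and both were 0 with the groups alone. For AKG against no glutamine (0 and 0) they were 1 and 2 with the block or the pair factor and 11 and 3 in replicates 1 and 2. The fatty acid count was 1 with library totals, the 1 CPM filter, DESeq2 or replicates 3 and 4 only. For AKG against glutamine (0 and 0) they were 7 and 4 with the block, 9 and 4 with the pair factor, 2 and 4 with DESeq2, 9 and 5 in replicates 1 and 2, and 8 and 4 in replicates 3 and 4. With IL-4, the 3 sterol calls became 0 with the replicate block or the groups alone. Across all genes, 587 were called without glutamine, 186 for AKG against no glutamine and 0 for AKG against glutamine. These became 1260, 682 and 232 with DESeq2, 2707, 1917 and 876 with the block, 3090, 2312 and 1133 with the pair factor, 3526, 2908 and 1433 in replicates 1 and 2, and 1670, 703 and 790 in replicates 3 and 4. With the groups alone the first 2 were 243 and 60. AKG against no glutamine gave 123 with no filter and as few as 28 with 1 library left out, and AKG against glutamine gave 4 with library totals.

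In the stimulation table same-number libraries correlated at 0.50 between untreated and LPS cells. Those of IL-4 correlated at -0.66 with untreated and -0.37 with LPS libraries of the same number. With 2 libraries per group, crossing the numbers only turns the sign. With the IL-4 numbers crossed, added after seeing the data, the IL-4 sterol count was 5, and 3965 of all genes were called against 2518 (944 and 972 without replicate 1 or 2 of IL-4). With each library left out, the sterol and fatty acid counts ran from 0 to 0 and 0 to 2 (no glutamine, 0 without replicate 2 or 3 of that group), 0 to 0 and 0 to 1 (AKG against no glutamine), 0 to 0 and 0 to 0 (AKG against glutamine), 17 to 18 and 8 to 9 (LPS), 0 to 4 and 1 to 5 (IL-4), and 11 to 20 and 7 to 9 (IL-4 against LPS). A group left with 1 library is assumed to vary like the others.

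With the replicate block the sign turned for Scd2 without glutamine (0.14 to -0.15), Stard4 for AKG against no glutamine (0.052 to -0.012) and Idi1 with IL-4 (-0.015 to 0.16), none called in either fit. Under the other alternatives, which were run for members called in either fit and, in the stimulation table, for Srebf1 and Srebf2, it turned for those 2 genes. For LPS, Srebf1 was 0.047 with RLE factors or DESeq2, -0.20 to 0.19 over the libraries left out (0.19 without replicate 1 of untreated cells, 0.086 without replicate 2 of LPS), and Srebf2 was -0.30 with library totals. For IL-4 without replicate 1 of untreated cells they were 0.13 and 0.013, with lowest values of -0.22 and -0.28 over the libraries left out. For IL-4 against LPS with library totals they were 0.44 (called, adjusted p = 0.035) and 0.15, and Srebf1 was 0.10 without replicate 1 of LPS, -0.18 without replicate 2 of LPS and 0.0050 without replicate 1 of IL-4.

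Residual degrees of freedom were 9 in the tolerant table and 3 in the stimulation table, and the biological coefficient of variation was 0.271 and 0.174 (0.124 in the tolerant table with the block).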

Other observations

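Genes of cholesterol export, esterification and oxysterols, which are no members, were called in the tolerant table only in the fit with the replicate block. Without glutamine 3 of 12 rose and 2 fell, and with AKG against no glutamine 2 rose and 3 fell, where 21.7% and 15.3% of all genes were called. Soat1, which esterifies cholesterol, changed by 0.47 ± 0.060 (SE, adjusted p = 0.00059) without glutamine and by -0.43 ± 0.060 (SE, adjusted p = 0.002) with AKG. Npc1, the lysosomal cholesterol exporter, changed by 0.43 ± 0.064 (SE, adjusted p = 0.0013) and -0.48 ± 0.064 (SE, adjusted p = 0.0018). Cyp27a1 changed by -0.71 ± 0.092 (SE, adjusted p = 0.00066) and 0.67 ± 0.092 (SE, adjusted p = 0.0019), and Apoe, an apolipoprotein of cholesterol efflux, by -0.34 ± 0.074 (SE, adjusted p = 0.0097) and 0.44 ± 0.074 (SE, adjusted p = 0.0047). Both comparisons use the same libraries without glutamine, so opposite signs are not independent of each other. For AKG against glutamine none of the 12 was called, with or without the block, and 1 had an unadjusted p under 0.05 in each fit.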
